A study of Mus musculus with 8 samples.

Results

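Mitosis and spindle genes were described as a set of 48, taken from a list of symbols that covers the kinases and cyclins of mitotic entry, the spindle checkpoint, spindle motors, kinetochores, condensin and cytokinesis. A member was measured where at least 1 probe set carried its symbol, current or earlier, and no other. This held for 47 of the 48, out of 19958 genes in all; Ccnb1 was not analysed here. The 47 members rest on 830 probe sets, from 5 (Ube2c and Cenpa) to 46 (Cenpe) per gene with a median of 17, and each value is the mean of the log2 intensities of a gene's probe sets.

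The cells were Lin-Sca1+cKit+ cells isolated by flow cytometry, among which blood stem cells and the first progenitors lie, and their RNA was amplified before hybridisation to Affymetrix mouse gene arrays. The groups were adult bone marrow of Hmga2+/+ mice aged 8 to 12 weeks (n = 2), fetal liver of Hmga2-/- embryos (n = 3) and fetal liver of Hmga2+/+ embryos (n = 3), both fetal groups at E14.5. Whether animals were pooled for an array, and the strain, are not stated in the labels. The labels call the arrays of a group biological replicates, and p-values measure only the spread between these 8 arrays.

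A dividing cell enters mitosis when cyclin-bound Cdk1 is switched on, builds a bipolar spindle with motor proteins, and holds back chromosome separation through the spindle checkpoint until every kinetochore is attached. The anaphase-promoting complex then marks cyclins and securin for destruction and the midzone guides cytokinesis. The genes for these proteins are transcribed mainly in the G2 and M phases, and several of them serve as markers of cycling cells. Fetal liver stem cells are known as a cycling population and most adult marrow stem cells as a resting one.

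Hmga2 was at 5.89, 5.88 and 6.08 in knockout fetal cells, against 9.24, 9.01 and 8.83 in wild-type fetal cells, which fits the genotype labels on all 6 arrays. Of the sort gate genes, Kit was at 10.28 and 10.17 in adult cells, 9.64 to 9.90 in knockout fetal cells and 9.78 to 10.07 in wild-type fetal cells. Ly6a, which encodes Sca1, was at 8.99 and 8.44 in adult cells, 5.59 to 7.25 in knockout and 6.64 to 7.39 in wild-type fetal cells. The 5.59, on knockout array 1, lay below the background of 5.97 defined next. The adult difference of Ly6a in limma was 2.32 from knockout (adjusted p = 0.0179) and 1.82 from wild-type fetal cells (adjusted p = 0.0592). Of 8 hepatocyte markers 2 lay above background in adult, 3 in knockout fetal and 3 in wild-type fetal cells, where background is a log2 intensity of 5.97, the 95th percentile of the olfactory receptor genes. The mean of the hepatocyte markers was 5.63 and 5.58 in adult, 5.55 to 5.70 in knockout fetal and 5.55 to 6.27 in wild-type fetal cells, the highest being wild-type fetal array 3. The 7 erythroid markers averaged 5.53 and 5.84 in adult, 5.68 to 5.77 in knockout fetal and 5.59 to 5.79 in wild-type fetal cells, with 2, 2 and 1 of them above background in these groups.

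Mitosis and spindle genes were lower in adult marrow cells. Against wild-type fetal cells all 47 members had a lower adult mean, and 21 of them fell past an adjusted p of 0.05 in limma, with none higher. Among all genes 2.36% were called lower and 0.832% higher in the same comparison, 3.19% in all, and 18.6% had an unadjusted p under 0.05, as did 37 of the 47. The median difference of the members was -1.03 on the log2 scale, against 0.06 over all genes and -0.15 over the 9638 genes whose mean lay above background. Both adult arrays lay below all 3 wild-type fetal arrays in 39 of the 47 members, as they did in 15.7% of all genes, and in none did they lie above (20.1% of all genes). Of the 9638 genes above background, 456 were called lower and 86 higher. In 2682 of these both adult arrays lay below all wild-type fetal arrays, and in 1196 above. Against knockout fetal cells 33 of the 47 fell in adult cells and none was higher (among all genes 5.8% were called lower and 3.11% higher, 8.91% in all). The median was -1.29, 44 members had an unadjusted p under 0.05 (29.4% of all genes), and in 45 both adult arrays lay below all knockout arrays (20.6% of all genes). No member had both adult arrays above all knockout arrays (29.6% of all genes). Of the 9638 genes above background, 1094 were called lower and 237 higher. In 3439 of these both adult arrays lay below all knockout arrays, and in 1527 above. These comparisons share the adult arrays and are not independent of each other. In RNA from a sorted population, fewer cells in mitosis and less of these transcripts per cell cannot be told apart.

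**Figure D1:**
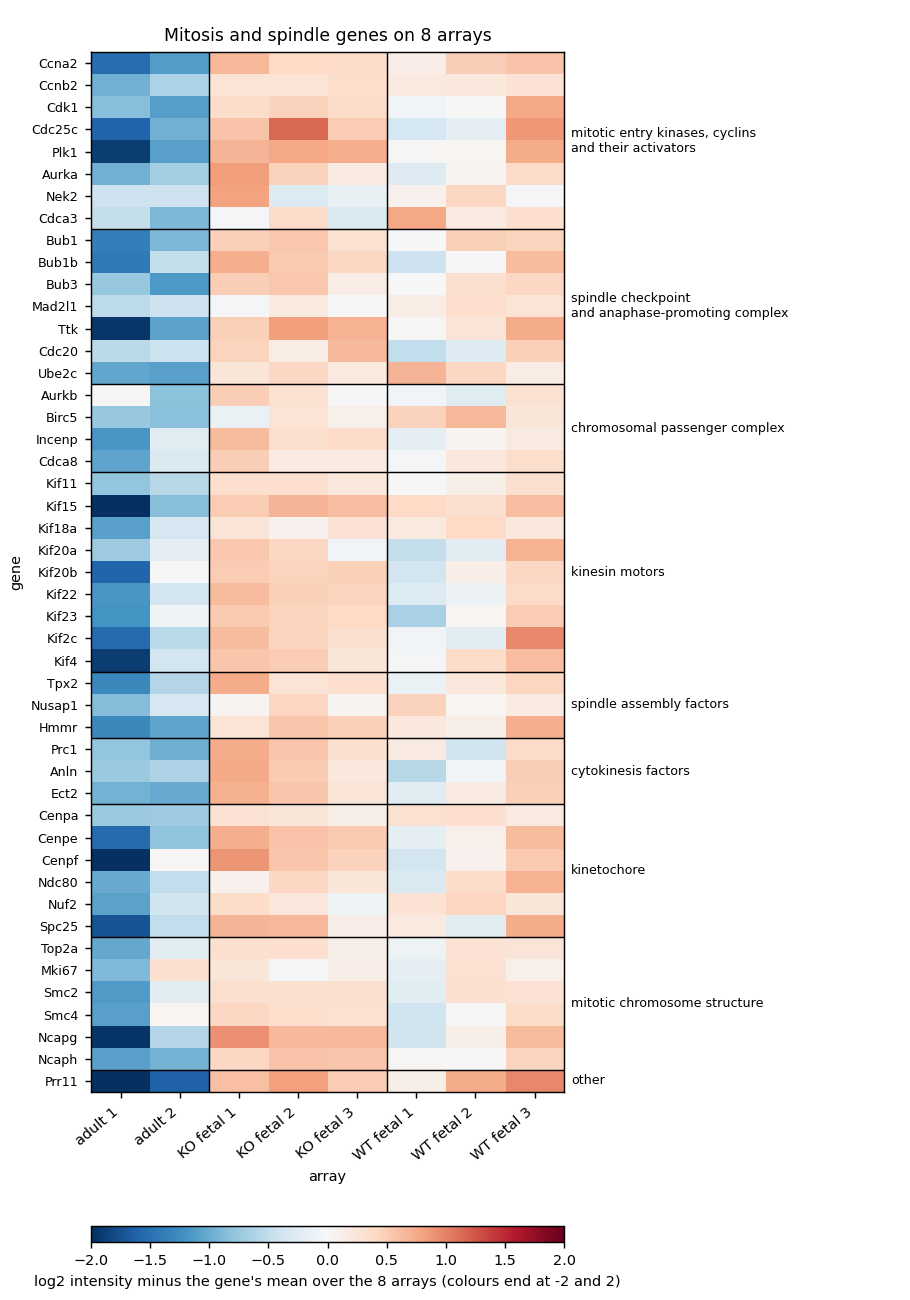
Log2 intensity of each of the 47 genes on the 8 arrays (columns: 2 adult, 3 knockout fetal, 3 wild-type fetal), shown as the difference from the gene's own mean over all arrays, with blue below and red above; genes are ordered by role. The adult columns are blue in nearly every row, adult array 1 more deeply than array 2, and wild-type fetal array 1 is paler than array 3.

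In all 8 measured mitotic entry genes both adult arrays lay below every fetal array, and 5 of the 8 fell against wild-type fetal cells. Ccna2, the cyclin of S phase and mitotic entry, read 7.46 and 7.87 in adult cells, 9.64, 9.38 and 9.36 in knockout fetal cells and 9.12, 9.48 and 9.55 in wild-type fetal cells. The adult arrays were thus more than 1 log2 unit below the lowest fetal array. Ccna2 was 3.30-fold lower in adult than in wild-type fetal cells (log2 difference -1.72, SE 0.20, adjusted p = 0.00497). Of its 9 probe sets 8 had a lower adult mean, and on 1 both adult arrays lay above all wild-type arrays. Plk1, the kinase of centrosome maturation and spindle assembly, read 5.63 and 6.43 in adult cells, 8.21, 8.30 and 8.25 in knockout fetal cells and 7.55, 7.57 and 8.27 in wild-type fetal cells. Here the knockout arrays were close together, and wild-type array 3 stood with them above the other wild-type arrays. Plk1 fell by 1.77 against wild-type (SE 0.28, adjusted p = 0.015) and by 2.22 against knockout fetal cells (SE 0.28, adjusted p = 0.00568). On 6 of its 8 probe sets the adult mean was lower than that of wild-type fetal cells. Cdk1, the catalytic partner of the mitotic cyclins, read 7.01 and 6.76 in adult cells, 8.23, 8.32 and 8.24 in knockout fetal cells and 7.80, 7.87 and 8.62 in wild-type fetal cells, and fell by 1.21 against wild-type fetal cells (SE 0.25, adjusted p = 0.0348).

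Ccnb2, which encodes another Cdk1 cyclin, was the tightest of this group in fetal cells, from 9.70 to 9.77 in knockout and from 9.63 to 9.72 in wild-type, against 8.47 and 8.79 in adult cells (difference from wild-type -1.03, adjusted p = 0.0135). Over the processing alternatives and arrays left out, this difference ran from -1.195 to -0.163, and its adjusted p reached 0.785. Cdca3, an adaptor for protein breakdown at mitotic entry, fell against wild-type (-1.12, adjusted p = 0.0493) and had -0.71 against knockout fetal cells (adjusted p = 0.104). Cdc25c, the phosphatase that activates Cdk1, read 5.49 and 6.11 in adult cells, 7.65, 8.23 and 7.58 in knockout fetal cells and 6.72, 6.88 and 7.94 in wild-type fetal cells. Its adult mean was the only one of the 47 below background, so the adult level is at least 3.44-fold lower than in knockout fetal cells (adjusted p = 0.0174) and at least 2.20-fold lower than in wild-type fetal cells, where it did not pass (adjusted p = 0.085). Aurka, a centrosomal kinase, passed against knockout fetal cells (-1.32) and not against wild-type (-0.88, adjusted p = 0.0922). Nek2, a kinase of centrosome separation, passed in neither, with -0.57 against wild-type and -0.55 against knockout fetal cells.

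Among the 7 checkpoint and anaphase-promoting complex genes, 5 fell against wild-type fetal cells: Ttk, Bub1, Bub3, Mad2l1 and Ube2c. Ttk, the kinase that starts checkpoint signalling at kinetochores, read 6.16 and 7.04 in adult cells, 8.58, 8.95 and 8.80 in knockout fetal cells and 8.14, 8.36 and 8.85 in wild-type fetal cells. That is a 3.60-fold lower level than in wild-type fetal cells (-1.85, SE 0.29, adjusted p = 0.0147), and all 21 of its probe sets had a lower adult mean. Bub1, a checkpoint kinase, read 7.40 and 7.86 in adult cells, 9.24, 9.31 and 9.07 in knockout fetal cells and 8.77, 9.25 and 9.21 in wild-type fetal cells (-1.45 against wild-type, adjusted p = 0.0127), with all 25 probe sets lower. Ube2c, the ubiquitin-conjugating enzyme of the anaphase-promoting complex, was nearly the same on both adult arrays, 7.60 and 7.56, against 8.88, 9.05 and 8.84 in knockout fetal cells and 9.31, 9.05 and 8.79 in wild-type fetal cells. It fell by 1.47 against wild-type (SE 0.19, adjusted p = 0.0067), and all 5 of its probe sets lay lower on both adult arrays than on every wild-type array.

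Mad2l1, the checkpoint protein that sequesters Cdc20, fell by 0.73 against wild-type fetal cells (adjusted p = 0.0425) and had -0.53 against knockout fetal cells (adjusted p = 0.0677). Bub1b, the checkpoint partner of Bub3, passed only against knockout fetal cells (-1.51, adjusted p = 0.0291, and -1.03, adjusted p = 0.143, against wild-type); the difference between these values was not past the threshold (knockout minus wild-type 0.48, adjusted p = 0.702). Cdc20, the activator of the anaphase-promoting complex, was among the 3 members that differed least. It read 7.003 and 7.113 in adult cells, 7.99, 7.70 and 8.19 in knockout fetal cells and 7.06, 7.29 and 8.01 in wild-type fetal cells, so wild-type array 1 lay between the adult arrays (-0.40 against wild-type, SE 0.28, adjusted p = 0.478).

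**Figure D2:**
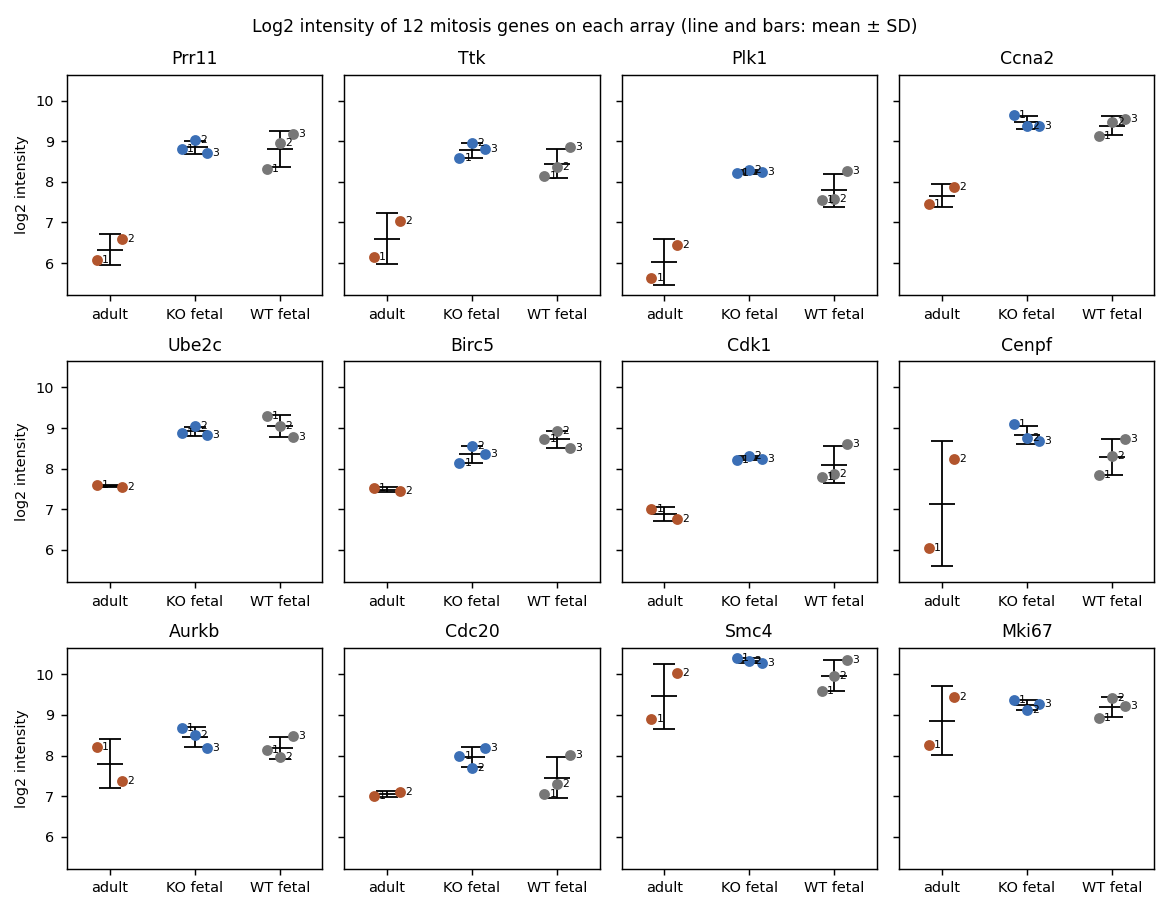
Log2 intensity of 12 members on each array (points, numbered by replicate; groups on the horizontal axis; line and bars are mean and SD). Prr11, Ttk, Plk1, Ccna2, Ube2c, Birc5 and Cdk1 have both adult points below all fetal points, while Cenpf, Aurkb, Cdc20, Smc4 and Mki67 overlap with wild-type fetal cells.

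The chromosomal passenger complex corrects faulty attachments and later moves to the midzone, and its 4 genes differed in size of change. Birc5, its survivin subunit, read 7.52 and 7.44 in adult cells, 8.14, 8.55 and 8.37 in knockout fetal cells and 8.74, 8.93 and 8.52 in wild-type fetal cells. It fell by 1.25 against wild-type (SE 0.19, adjusted p = 0.0134) and by 0.87 against knockout fetal cells (adjusted p = 0.0268). Aurkb, the kinase of the complex, read 8.22 and 7.38 in adult cells, 8.68, 8.50 and 8.18 in knockout fetal cells and 8.13, 7.96 and 8.49 in wild-type fetal cells, and overlapped with both fetal groups (-0.39 against wild-type, SE 0.28, adjusted p = 0.483). It is the member in which adult array 1 exceeded array 2 the most. Incenp, the scaffold, and Cdca8, which encodes borealin, passed only against knockout fetal cells (-1.14 and -0.94, adjusted p = 0.0318 and 0.0448). Against wild-type fetal cells they had -0.72 and -0.84 (adjusted p = 0.184 and 0.102).

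Of the 9 kinesin genes, 3 fell against wild-type fetal cells: Kif15, Kif11 and Kif18a. Kif11, the motor that pushes spindle poles apart, read 8.12 and 8.35 in adult cells, 9.25, 9.24 and 9.14 in knockout fetal cells and 8.90, 9.02 and 9.22 in wild-type fetal cells (-0.81, SE 0.17, adjusted p = 0.0367). Kif15, which can maintain the bipolar spindle alongside Kif11, read 6.45 and 7.90 in adult cells, 9.25, 9.43 and 9.36 in knockout fetal cells and 9.14, 9.07 and 9.36 in wild-type fetal cells. Its adult arrays were more than 1 log2 unit apart and yet both below every fetal array, and it was 4.04-fold lower than in wild-type fetal cells (-2.02, SE 0.34, adjusted p = 0.0196). Kif18a, which dampens chromosome movement at alignment, fell by 0.98 (adjusted p = 0.0494). Kif4, a motor on chromosome arms, Kif2c, a microtubule depolymerase, and Kif22, another chromosome-bound motor, passed only against knockout fetal cells (-1.58, -1.50 and -1.29). Against wild-type fetal cells they had -1.46, -1.27 and -0.77 (adjusted p = 0.0791, 0.112 and 0.16). Kif20a, Kif20b and Kif23, motors of the midzone and late mitosis, passed in neither, with -0.45, -0.84 and -0.61 against wild-type.

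Of the spindle assembly genes, Hmmr, a spindle protein also known as a hyaluronan receptor, read 6.41 and 6.64 in adult cells, 7.98, 8.25 and 8.18 in knockout fetal cells and 7.90, 7.82 and 8.42 in wild-type fetal cells, and fell by 1.53 against wild-type (SE 0.21, adjusted p = 0.00995). Tpx2, which activates Aurora A on spindle microtubules, had -1.11 against wild-type (adjusted p = 0.0548) and fell by 1.39 against knockout fetal cells (adjusted p = 0.0177). Nusap1, a microtubule-binding protein, passed in neither (-0.82 against wild-type). All 3 cytokinesis genes fell against knockout fetal cells and 1 of them, Ect2, the activator of RhoA at the cleavage plane, also against wild-type (-1.13, adjusted p = 0.0336). Prc1, which bundles the antiparallel microtubules of the midzone, read 7.52 and 7.32 in adult cells, 9.05, 8.86 and 8.63 in knockout fetal cells and 8.48, 7.90 and 8.69 in wild-type fetal cells. Prc1 fell by 1.43 against knockout fetal cells (adjusted p = 0.0137) and had -0.94 against wild-type (adjusted p = 0.0755). Anln, a scaffold of the contractile ring, had -1.18 against knockout (adjusted p = 0.0381) and -0.64 against wild-type fetal cells (adjusted p = 0.272).

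Among the 6 kinetochore genes, Cenpa, Cenpe and Nuf2 fell against wild-type fetal cells. Cenpa, the histone variant that marks centromeres, was at 7.27 and 7.29 in adult cells, 8.31, 8.26 and 8.13 in knockout fetal cells and 8.32, 8.36 and 8.19 in wild-type fetal cells. Its difference of -1.01 had one of the smallest SEs in this fit (SE 0.15, adjusted p = 0.0133). Over the processing alternatives and arrays left out, the Cenpa difference ran from -1.06 to -0.30, and its adjusted p reached 0.794. Cenpe, the kinetochore-bound motor of chromosome alignment, read 7.09 and 7.82 in adult cells, 9.35, 9.21 and 9.15 in knockout fetal cells and 8.43, 8.74 and 9.26 in wild-type fetal cells (-1.36, SE 0.28, adjusted p = 0.037). Of the Ndc80 complex, which grips spindle microtubules, Nuf2 fell by 1.06 (adjusted p = 0.0418), while Ndc80 had -1.01 and Spc25 -1.35 without passing (adjusted p = 0.096 and 0.0966). Cenpf, a large protein of the outer kinetochore, had the widest adult gap of all members, 6.05 and 8.23, against 9.09, 8.76 and 8.67 in knockout fetal cells and 7.84, 8.30 and 8.73 in wild-type fetal cells. It passed in neither comparison (-1.15, SE 0.53, adjusted p = 0.284 against wild-type).

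The 6 genes of mitotic chromosome structure gave 1 call against wild-type fetal cells, Ncaph, a condensin I subunit, at 6.81 and 6.96 in adult cells, 8.30, 8.47 and 8.45 in knockout fetal cells and 7.93, 7.91 and 8.34 in wild-type fetal cells (-1.17, SE 0.18, adjusted p = 0.0138). Ncapg, a further condensin I subunit, and Smc2, of the condensin core, passed only against knockout fetal cells (-2.01 and -1.01). Against wild-type fetal cells they had -1.39 and -0.82 (adjusted p = 0.0967 and 0.145). Smc4, the core partner of Smc2, read 8.89 and 10.02 in adult cells, 10.40, 10.33 and 10.29 in knockout fetal cells and 9.58, 9.97 and 10.35 in wild-type fetal cells (-0.51, adjusted p = 0.436). Top2a, which untangles replicated chromosomes, read 9.06 and 9.89 in adult cells, 10.42, 10.43 and 10.21 in knockout fetal cells and 9.99, 10.38 and 10.36 in wild-type fetal cells (-0.77, SE 0.25, adjusted p = 0.139). Mki67, the chromosome-coating protein used as a marker of cycling cells, differed least of the 47. It read 8.25 and 9.45 in adult cells, 9.37, 9.11 and 9.26 in knockout fetal cells and 8.94, 9.43 and 9.23 in wild-type fetal cells, so adult array 2 was the highest of all 8 and array 1 the lowest (-0.35, SE 0.31, adjusted p = 0.591).

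Prr11, a proline-rich protein linked to cell cycle progression in human cell lines, had the largest difference. It read 6.07 and 6.59 in adult cells, 8.80, 9.03 and 8.71 in knockout fetal cells and 8.32, 8.95 and 9.17 in wild-type fetal cells. Prr11 was 5.58-fold lower in adult than in wild-type (-2.48, SE 0.27, adjusted p = 0.00306) and 5.71-fold lower than in knockout fetal cells (-2.51, adjusted p = 0.00282), with all 10 probe sets lower in adult cells.

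**Figure D3:**
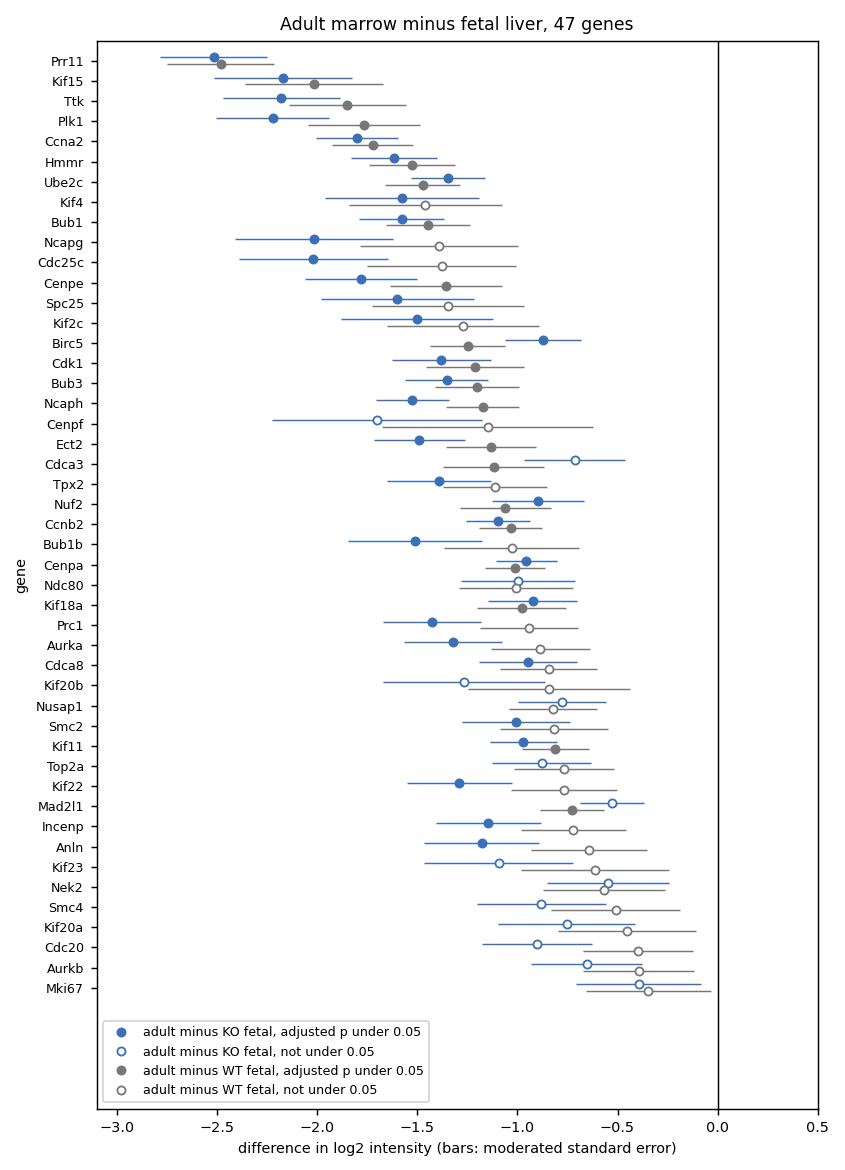
Difference in log2 intensity of adult marrow from knockout fetal liver (blue) and from wild-type fetal liver (grey) for the 47 genes, with the moderated standard error; filled points passed an adjusted p of 0.05. All points lie left of 0, from Prr11 at -2.48 to Mki67 at -0.35 against wild-type fetal cells, and both colours share the 2 adult arrays.

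Both comparisons with adult cells called 19 members, the comparison with wild-type fetal cells alone called Cdca3 and Mad2l1, the one with knockout fetal cells alone called 14, and 12 passed in neither. The 12 were Aurkb, Cdc20, Cenpf, Kif20a, Kif20b, Kif23, Mki67, Ndc80, Nek2, Nusap1, Smc4 and Top2a. Among all genes 3.19% were called against wild-type and 8.91% against knockout fetal cells. The share called in both is not given here. Since both comparisons use the same adult arrays, the count of 19 is a description only. The direction was shared by most probe sets: of the 830, the adult mean was lower than that of wild-type fetal cells in 743. In 363 both adult arrays lay below all 3 wild-type arrays, and in 11 they lay above. At gene level these orders held in 15.7% and 20.1% of all genes, and the shares over all probe sets are not given here. Of the 496 probe sets of members not called, 430 had a lower adult mean, against 313 of the 334 of members called.

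Many genes of this kind share promoter elements in mammals: CCAAT boxes, bound by NF-Y, and the cell cycle genes homology region (CHR), bound by MuvB complexes that repress with E2F4 and p130 in resting cells and activate with B-Myb and FoxM1 in dividing ones. Because the members moved together between adult and fetal cells, the 250 bases before each annotated start were searched for the CHR letters TTTGAA or TTTAAA and for CCAAT, each on both strands and with overlapping matches counted. RefSeq promoters of GRCm38.p6 were matched for 41 of the 48 members, 44 starts in all; Aurkb, Ccna2, Cdc25c, Incenp, Kif20a, Smc4 and Tpx2 had no entry. A CCAAT match stood in 75.0% of the members' promoters and 33.8% of all 32851 promoters, and at least 2 of them in 52.3% and 10.1%. A CHR match stood in 50.0% of the members' and 25.2% of all promoters, and both kinds in 43.2% and 8.78%. Of the members fallen against wild-type fetal cells with a promoter, 8 of 20 held both, and likewise 8 of 20 of those not called. These are matches of letters in a fixed window and do not show that a factor binds there.

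The upstream sequences of 6 members are shown for the contrast in size of change, 4 that fell in adult cells (Prr11, Ube2c, Plk1 and Cdk1) and 2 of the 3 that differed least (Mki67 and Cdc20). Each runs 5′ to 3′ on the gene's strand and ends at the base before the start, and capitals mark CCAAT or CHR matches on either strand (ATTGG and TTCAAA are the reverse-strand forms).
Prr11, chr11:87108715-87108964, minus strand: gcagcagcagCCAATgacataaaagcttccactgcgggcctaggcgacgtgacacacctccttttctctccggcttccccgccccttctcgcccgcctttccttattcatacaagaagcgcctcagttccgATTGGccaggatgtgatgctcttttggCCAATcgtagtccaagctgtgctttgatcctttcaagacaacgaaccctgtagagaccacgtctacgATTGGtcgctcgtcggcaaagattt
Ube2c, chr2:164769679-164769928, plus strand: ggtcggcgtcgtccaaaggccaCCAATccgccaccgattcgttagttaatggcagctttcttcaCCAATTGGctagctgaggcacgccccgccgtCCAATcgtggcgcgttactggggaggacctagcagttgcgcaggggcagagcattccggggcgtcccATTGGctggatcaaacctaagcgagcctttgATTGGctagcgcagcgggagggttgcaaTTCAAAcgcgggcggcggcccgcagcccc
Plk1, chr7:122159185-122159434, plus strand: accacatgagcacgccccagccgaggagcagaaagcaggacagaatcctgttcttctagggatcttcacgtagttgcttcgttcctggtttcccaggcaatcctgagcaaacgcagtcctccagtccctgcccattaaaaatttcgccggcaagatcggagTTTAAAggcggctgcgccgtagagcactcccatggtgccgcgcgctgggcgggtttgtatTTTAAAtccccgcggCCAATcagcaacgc
Cdk1, chr10:69352913-69353162, minus strand: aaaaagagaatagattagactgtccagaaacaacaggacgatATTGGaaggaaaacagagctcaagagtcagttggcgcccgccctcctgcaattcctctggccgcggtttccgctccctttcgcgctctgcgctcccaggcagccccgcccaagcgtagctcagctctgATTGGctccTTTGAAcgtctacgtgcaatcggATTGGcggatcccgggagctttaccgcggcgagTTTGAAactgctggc
Mki67, chr7:135716380-135716629, minus strand: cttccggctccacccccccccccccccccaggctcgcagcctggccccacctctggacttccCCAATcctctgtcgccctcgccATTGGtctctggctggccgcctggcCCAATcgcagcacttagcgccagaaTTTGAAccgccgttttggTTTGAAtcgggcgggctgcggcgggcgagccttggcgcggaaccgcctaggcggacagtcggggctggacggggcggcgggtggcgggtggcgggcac
Cdc20, chr4:118437344-118437593, minus strand: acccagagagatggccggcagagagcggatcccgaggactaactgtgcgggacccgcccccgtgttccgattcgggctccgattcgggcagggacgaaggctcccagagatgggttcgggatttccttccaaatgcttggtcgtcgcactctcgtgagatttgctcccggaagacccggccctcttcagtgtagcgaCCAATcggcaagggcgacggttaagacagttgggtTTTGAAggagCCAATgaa
Prr11, with the largest difference, held 4 CCAAT matches and no CHR match. Ube2c held 6 CCAAT matches, of which a pair overlaps on opposite strands, and 1 CHR match ending 24 bases before the start. Plk1 held CHR matches ending 84 and 24 bases before the start and 1 CCAAT match, and Cdk1 held CHR matches ending 66 and 10 bases before it and 3 CCAAT matches. Mki67, with the smallest difference, held 2 CHR and 3 CCAAT matches, and Cdc20 held 1 CHR match ending 13 bases before the start and 2 CCAAT matches.

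Lists of other genes of the same machinery gave some calls in adult against wild-type fetal cells, all of them lower, beside 2.36% of all genes called lower. Of 28 other kinetochore genes 6 fell and none rose (median -0.86, with 25 below 0 and 3 above), among them Ska3 (-1.96, adjusted p = 0.0219), Zwint (-1.31, adjusted p = 0.0149), Spc24 (-1.23, adjusted p = 0.0442) and Ska1. The adult mean of Ska1, a subunit of the complex that couples kinetochores to shrinking microtubules, lay below background, so it is at least 2.44-fold lower (adjusted p = 0.00779). Of 38 other spindle, cytokinesis and mitotic kinase genes 8 fell and none rose (median -0.77, with 32 below 0 and 6 above), with Dlgap5, a spindle assembly protein, at -1.73, Trip13, which remodels checkpoint proteins, at -1.58, Ckap2 at -1.45 and Bora, an activator of Aurora A, at -1.14. On the other side of 0, Wee1, the kinase that holds Cdk1 inactive, had 0.51 (adjusted p = 0.165) and Numa1, a spindle pole protein, had 0.49 (adjusted p = 0.205). Of 18 cohesin, separase and other condensin genes 3 fell (median -0.45, with 17 below 0 and 1 above): Cdca5, which protects cohesin (-1.93), and the shugoshins Sgo2a (-1.37) and Sgo1 (-1.06). Of 16 other anaphase-promoting complex genes 1 fell, Anapc5 (-0.68, adjusted p = 0.047), with a median of -0.55, 15 below 0 and 1 above.

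Of 18 transcription factor genes linked to G2 and M phase promoters, 3 fell in adult against wild-type fetal cells and none rose (median -0.22, with 13 below 0 and 5 above). Foxm1, the forkhead activator of late cell cycle genes, was at 7.36 and 6.96 in adult cells, 8.00 to 8.04 in knockout fetal cells and 8.04 to 8.08 in wild-type fetal cells (-0.89, adjusted p = 0.026). Nfyb, a subunit of the CCAAT-binding factor, fell by 1.56 (adjusted p = 0.00497), and Lin54, the MuvB subunit that contacts the CHR, by 0.91 (adjusted p = 0.0324). Other subunits of NF-Y and MuvB were not called. Nfya had -0.20 (adjusted p = 0.545), Nfyc -0.60 (adjusted p = 0.363) and Rbbp4 -0.89 (adjusted p = 0.0906). Lin9 had 0.05 and Lin37 0.44 (adjusted p = 0.928 and 0.575). E2f4 had -0.23, and Rbl2, which encodes p130, 0.61 (adjusted p = 0.784 and 0.1). Mybl2, which encodes B-Myb, had -0.86 against wild-type (adjusted p = 0.0927) and fell by 0.94 against knockout fetal cells (adjusted p = 0.0442). For E2f1, an activator of the G1 to S transition, the difference from wild-type was 0.05 (adjusted p = 0.930).

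The adult arrays differed from each other in these genes by more than other genes did. The median over members of their SD was 0.44 in adult cells, 0.16 in knockout fetal and 0.32 in wild-type fetal cells, against 0.23, 0.20 and 0.24 over the 9638 genes above background. Adult array 1 lay below array 2 in 39 of 47 members, by a median of 0.55, while the median gap of all genes was -0.02. The gap widened with the number of probe sets of a gene: it had a median of 0.92 in the 18 members with 20 or more probe sets and 0.02 in the 15 with 10 or fewer. Over all genes above background these medians were 0.16 (1627 genes) and -0.07 (5362 genes), so the same sign of dependence was present outside the set. Across the 47 members the gap and the number of probe sets had a Pearson r of 0.52 and a Spearman rho of 0.56; the points share the same 2 arrays and are not independent. The gap of wild-type fetal array 3 over array 1 also widened, with a median of 0.74 in members with 20 or more probe sets and 0.36 in those with 10 or fewer (r 0.37 and rho 0.42 over the 47). Against wild-type fetal cells the median adult difference was -1.14 with 7 of 18 called at 20 or more probe sets, -0.91 with 3 of 14 called at 11 to 19, and -1.20 with 11 of 15 called at 10 or fewer. Against knockout fetal cells it was -1.51 with 13 called, -1.07 with 10 called and -1.10 with 10 called in these classes, from many probe sets to few. Knockout minus wild-type had medians of 0.34, 0.29 and 0.06 in the same classes.

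**Figure D4:**
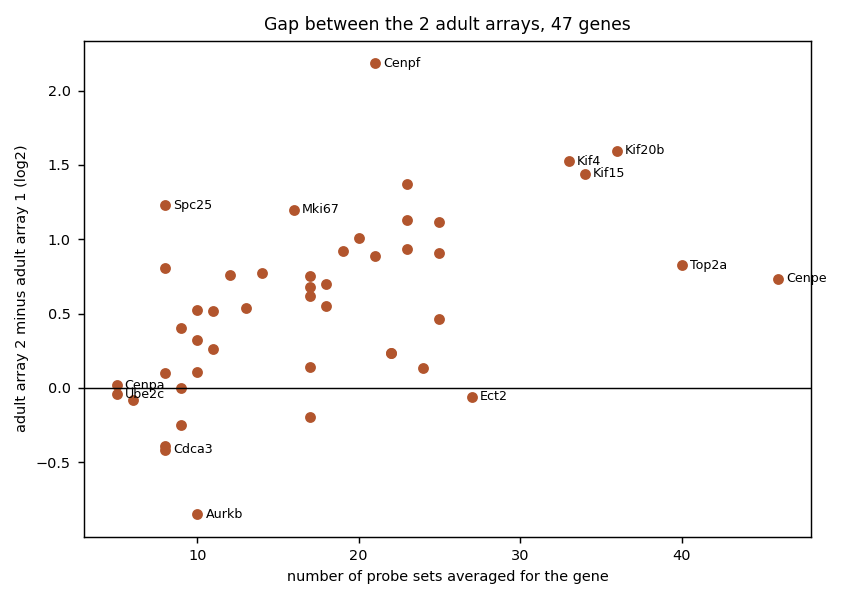
Difference between adult arrays 2 and 1 (log2, vertical) against the number of probe sets averaged for the gene (horizontal) for the 47 members, each point 1 gene. Cenpf has the widest gap, 2.18, and Aurkb the lowest, -0.85, while Ube2c and Cenpa, with 5 probe sets each, lie near 0.

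Which members passed depended on single arrays. Without adult array 1, 8 members fell against wild-type fetal cells and the median was -0.75, without adult array 2, 25 fell with a median of -1.23, and 12 fell without wild-type fetal array 2 and also without array 3; Ccna2, Ube2c, Birc5, Hmmr, Cenpa and Prr11 passed without each of the 5 arrays in turn. The count was 3 when only these 2 groups were fitted and 4 with the median of a gene's probe sets in place of the mean, and against knockout fetal cells it ran from 16 to 37 over the arrays left out. Of the members that passed against wild-type without each array, Ccna2 alone also passed under every planned processing alternative (adjusted p at most 0.0439). Among markers of other cell types, 2 of 6 megakaryocyte markers (Pf4 and Itga2b), 1 of 7 lymphoid markers (Dntt) and 1 of 7 granulocyte markers (Ctsg) were called higher in adult than in wild-type fetal cells, and the rest of these lists passed in neither direction. The mean of the 6 megakaryocyte markers was 6.89 and 6.69 in adult and 5.83 to 6.01 in wild-type fetal cells (6 and 4 of 6 above background). The mean of the 7 lymphoid markers was 5.86 and 5.95 in adult and 5.34 to 5.43 in wild-type fetal cells (2 and 1 of 7 above background). Dntt alone had 4.77, while 4 of the 7 lymphoid markers lay below 0, among them Il7r (-0.85, adjusted p = 0.450) and Cd79b (-0.42, adjusted p = 0.345). The mean of the 7 granulocyte markers was 7.11 and 6.73 in adult and 6.12 to 6.996 in wild-type fetal cells (5 and 3 of 7 above background), where Mpo (-0.67, adjusted p = 0.109) and Ltf (-0.19, adjusted p = 0.704) lay below 0. The means of the 7 macrophage markers (5.88 on both, against 5.68 to 5.73) and the 7 endothelial and stromal markers (5.91 and 5.81, against 6.001 to 6.05) had 3 above background in adult cells and 2 and 3 in wild-type fetal cells. Against knockout fetal cells Tfrc (-1.40), Cd68 (-0.73) and Cdh5 (-0.85) were called lower in adult cells. Pf4, Itga2b, Dntt, Ly6a and Vcam1 were called higher there, with Vcam1 below background in every group mean. The part of these markers in the result was not tested.

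Loss of Hmga2 gave no call among the members: 0 of 47 passed in limma between knockout and wild-type fetal cells in either direction, where 0.01% of all genes were called, and 0 of 47 had an unadjusted p under 0.05, against 7.63% of all genes. The median difference was 0.19, against -0.02 over all genes, and 37 members lay above 0. In 4 of 47, Incenp, Kif20b, Kif22 and Ncapg, all knockout arrays lay above all wild-type arrays, as in 5.94% of all genes, and in none did all lie below, as in 7.86% of all genes.

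The largest differences on the higher side belonged to Cdc25c, Ncapg and Cenpf. Cdc25c, with the arrays given above, had 0.64 (SE 0.33, adjusted p = 0.668). Ncapg read 9.37, 9.12 and 9.11 in knockout cells, against 8.07, 8.58 and 9.10 in wild-type cells (0.62, SE 0.35, adjusted p = 0.673). The lowest knockout array was barely above the highest wild-type array, number 3. Cenpf had 0.55 (SE 0.47, adjusted p = 0.772). On the lower side stood Cdca3 at 7.51, 7.91 and 7.24 in knockout cells, against 8.30, 7.71 and 7.86 in wild-type cells (-0.41, SE 0.23, adjusted p = 0.671), Birc5 (-0.38, SE 0.17, adjusted p = 0.647) and Mad2l1 at 9.50, 9.74 and 9.54, against 9.69, 9.87 and 9.81 (-0.20, SE 0.14, adjusted p = 0.730). None of these differences exceeded the spread between arrays by the test used, and with SEs of this size a modest change in either direction would not have been detectable.

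**Figure D5:**
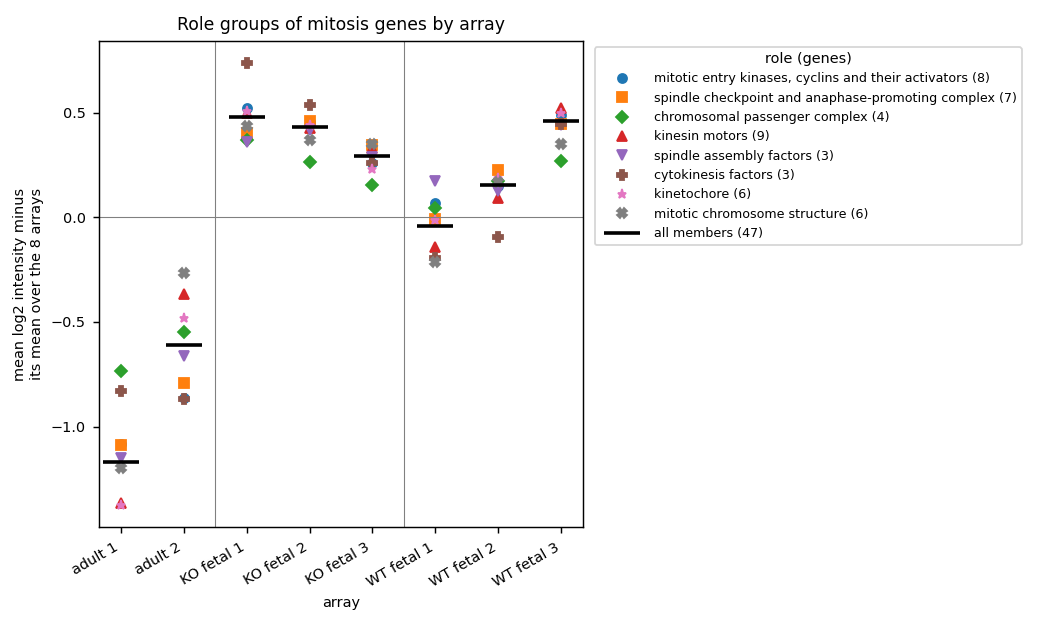
Mean log2 intensity of 8 role groups on each array, as the difference from the group's mean over the 8 arrays (coloured symbols), with the mean of all 47 members as a black bar; Prr11 counts only in the black bars. The black bars are at -1.17 and -0.61 in adult cells, between 0.29 and 0.48 in knockout fetal cells and at -0.04, 0.16 and 0.46 in wild-type fetal cells.

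The wild-type fetal arrays were spread over a range that held most of the knockout values. Array 1 was the lowest of the 3 in 33 members and array 3 the highest in 34, with array 3 above array 1 by a median of 0.52. The mean of the 47 members was 8.73, 8.68 and 8.54 in knockout cells, against 8.21, 8.40 and 8.71 in wild-type cells. Without wild-type array 3 the median difference between the genotypes was 0.41, with 15 of 47 members at an unadjusted p under 0.05 and none called. In the same setting 3065 of all 19958 genes had an unadjusted p under 0.05. Without wild-type arrays 1 and 2 together, a setting added after the data were seen, it was -0.02, with 19 members above 0. Wild-type array 3 was also the array with the highest hepatocyte marker mean, given above, and its part in this spread was not tested.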

How the data were processed

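Gene expression was measured on 8 Affymetrix arrays. The deposited values are intensities on a linear scale that the authors made with RMA, per the submitters' processing notes, which name no version. The series value table holds 225993 probe sets, and a second deposited table of intensities holds 199508 exon rows, 180224 of them with the same 8 values as a probe set. Values were log2 transformed without further normalization, and the 208881 probe sets with exactly 1 platform symbol were averaged per gene, after updating symbols to RefSeq (17255 current, 2585 updated, 118 kept). A change in part of a transcript would be diluted by this averaging.

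Groups were compared with limma 3.58.1 (R 4.3.3), lmFit and eBayes, with 1 coefficient per group over the 8 arrays. Two-sided p-values were adjusted after Benjamini and Hochberg across the 19958 genes; an adjusted p under 0.05 was called. The SE is the moderated standard error. The number of arrays limits the precision. Background is the 95th percentile, 5.97, of 980 olfactory receptor genes, and folds against a mean below it are given as bounds. The fit was tested on simulated arrays with known changes. Each simulated gene varied on its own, so this does not cover genes that shift together on an array.

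The members and lists were chosen with earlier results of these data known. Every member is described, and per-array values are given mainly for the 10 largest called and 3 smallest differences between adult and wild-type fetal cells, the 3 largest in each direction for the knockout, and fixed members of each role. From the other lists, up to 4 called genes with the largest differences were named. Mybl2, E2f1 and the other uncalled transcription factor genes, Wee1, Numa1, the uncalled marker genes and the per-array values of Ccnb2, Cenpa and Ncaph were added after they were seen. Deviations of same-numbered arrays from their group means had correlations from -0.064 to 0.156 over 9638 genes. They were from -0.038 to 0.016 between the fetal groups, and 0.156 and 0.058 between adult and wild-type fetal cells. Alternatives were other sets of arrays, a replicate block, trended and robust variance, array weights, leaving out dim probe sets or dim genes, medians in place of means, quantile normalization and the exon table. Python 3.11.15 prepared the tables.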

Additional observations from a re-analysis of the deposited data

How the results depend on the processing

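All medians of the members against adult cells stayed below 0. Against wild-type fetal cells, 21 members were called (637 genes in all); the counts were 3 (120) in the fit of 2 groups only, 9 (185) with the replicate block, 4 (179) with medians of probe sets, 13 (322) with the exon table and 4 (89) without wild-type fetal arrays 1 and 2 together, and they ran from 8 to 25 (225 to 574) with each array left out, the median of members from -1.23 to -0.747. Against knockout fetal cells, 33 members (1779 genes) became 16 (489) with the replicate block, 20 (762) with medians of probe sets and 24 (1110) with the exon table, and 16 to 37 (482 to 1250, the last rounded) with each array left out, with medians from -1.45 to -0.947. The replicate numbers did not pair the fetal arrays, since only 1 of 6 correlated best with its own number in the other genotype. This check did not cover the adult arrays. Same-numbered adult and wild-type fetal arrays had correlations of 0.156 (number 1) and 0.058 (number 2). Array 1 was the lowest of its group in 39 members in adult, 33 in wild-type fetal and 11 in knockout fetal cells. An effect shared by arrays of the same number was not tested.

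Between knockout and wild-type fetal cells no member was called under any alternative run. The median ran from 0.0868 to 0.409 with each array left out and was -0.0162 without wild-type arrays 1 and 2 together, when limma called 0 genes (654 at an unadjusted p under 0.05); with the exon table it called 1 gene, and with single arrays left out 2 to 3. The replicate block called 0 members here too, with 1 at an unadjusted p under 0.05 (1554 of 19958 genes). With array weights the median was 0.28, and 11 members had an unadjusted p under 0.05 (2720 genes). With medians of probe sets the median was 0.33, with 5 such members (1414 genes). With quantile normalization it was 0.15, with 1 such member (1477 genes). A group left with 1 array is assumed to vary like the others.

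Differences that turned sign were all uncalled with every array in the fit. Against wild-type fetal cells, leaving out 1 adult array at a time gave Aurkb from -0.818 to 0.0297, Mki67 from -0.946 to 0.25 and Smc4 from -1.07 to 0.0557, and against knockout fetal cells Mki67 from -0.995 (called, without adult array 2) to 0.21. With medians of probe sets Cdc20 was at 0.0656 against wild-type, with the exon table Cdca3 at 0.0487 against knockout fetal cells, and without wild-type arrays 1 and 2 together Cdc25c at -0.12 between genotypes. The causes were not tested.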
